A study of Mus musculus with 12 samples.

Results

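Sca-1+ Lin- GFP+ mouse bone marrow cells that carried an active NUP98-HOX fusion were compared with cells that carried a fusion unable to bind DNA or no fusion at all. The active side held 6 arrays, 3 of ND13 (NUP98-HOXD13) and 3 of NA10 (NUP98-HOXA10), and the control side held 6 arrays, 3 of ND13(N51S), in which ND13 has a homeodomain mutation, and 3 of the GFP control, which is the retroviral vector with GFP alone. These were all 12 arrays of the series. Arrays were assigned by their labels, every probe set that is not a hybridization control was tested (22626 of 22690), and the replicate number of the labels was kept as a block.

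The marrow came from (C57Bl/6Ly-Pep3b×C3H/HeJ) F1 mice, adults past 12 weeks of age, that had received 5-fluorouracil at 150 mg/kg 4 days earlier. In all 4 groups the cells were prestimulated for 48 hours with interleukin-6, interleukin-3 and stem cell factor, cocultured for 2 days with irradiated GP+E86 virus producer cells, kept in medium for 24 hours and sorted. The vector was MSCV with an IRES-GFP cassette, so that the fusion and GFP were read from the viral promoter in every transduced cell. The study's methods describe separate experiments for each condition, without the number of animals behind each.

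HOX proteins are transcription factors that bind DNA through a homeodomain, often together with the TALE homeodomain proteins of the Pbx and Meis families. Genes of the HoxA cluster and Meis1 are active in primitive hematopoietic cells and decline as these cells mature. In leukemia, chromosome translocations join the amino-terminal part of the nucleoporin NUP98, with its repeats that recruit transcriptional coactivators, to the homeodomain of a HOX protein. The asparagine that N51S replaces lies in the recognition helix of the homeodomain and contacts DNA.

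The signal of a probe set is the linear MAS5 value of the MOE430A array, and all differences are of mean log2 signals, active fusions minus controls unless another pair is named. Each array's background was set at the 95th percentile of its 27 bacterial control probe sets and lay between 28.5 and 69.8 signal units, with a median signal of 128.5 to 159.7 over all probe sets. Between 14446 and 17695 probe sets were above background. ND13(N51S) replicate 2 stood apart in RNA quality, with a 3' to 5' signal ratio of 48.874 for Gapdh and 9.092 for actin, against at most 2.71 on the other 11 arrays. The study describes low ratios for all its samples, and whether this deposited array is the one used there was not determined. The deposited experiment record of GFP control replicate 1 names cells of another fraction, GFP-negative ones from the ND13(N51S) cultures, and its label was kept. Results are therefore also given without these arrays, alone and together. In sorted cells, a lower share of cells with a transcript and less of it per cell cannot be told apart.

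With all 12 arrays, 20 probe sets of 16 named genes rose and 3 probe sets of 3 genes fell by at least 1.5-fold at an adjusted p under 0.05 (limma, Benjamini-Hochberg over all probe sets). That was 0.0884% and 0.0133% of those tested. At the same fold but an unadjusted p under 0.05 there were 655 higher (2.89%) and 704 lower (3.11%), and the median difference over all probe sets was -0.03. Of the 23 called, 9 had no overlap between the 6 active and the 6 control arrays, against 84 probe sets (0.371%) with all active arrays above all controls and 53 (0.234%) with all below among all tested. For 17 of the 23, the exact permutation test of the arm labels within replicate numbers (two-sided) gave its smallest possible p, 0.00926. The 23 were selected by the same difference on the same arrays, so that this count is no independent support. The share of all probe sets with this p was not taken. Higher calls covered Hox partners and other transcription factors, RNA helicases, receptors and feedback regulators of signaling, enzymes, and RNAs of an imprinted locus on chromosome 12.

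**Figure D1:**
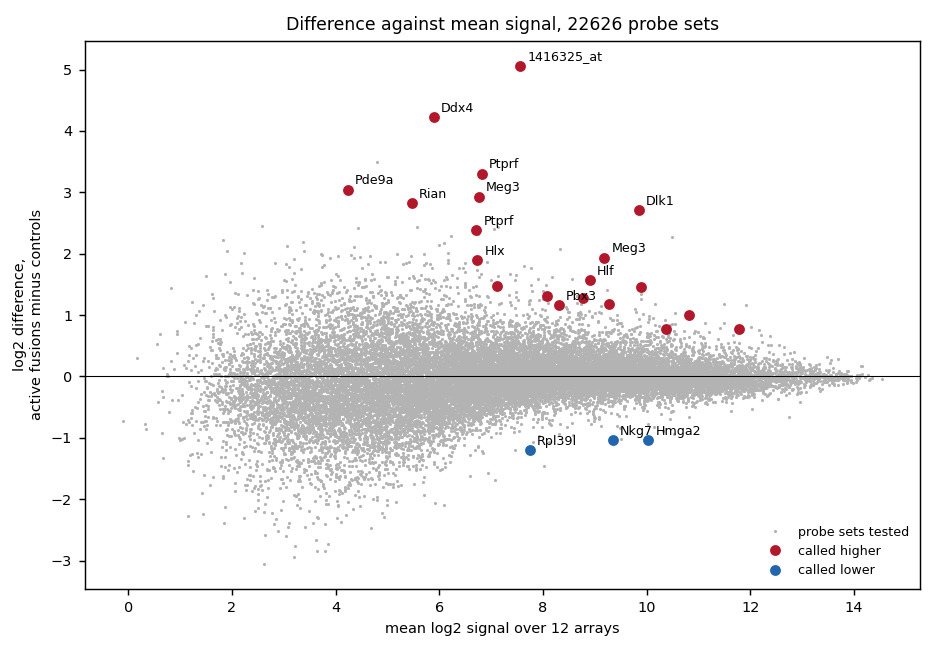
Difference of mean log2 signal, active fusions minus controls, against the mean log2 signal over 12 arrays for the 22626 probe sets tested (grey), with the 20 called higher in red and the 3 called lower in blue. Most of the higher calls lie above 1 on the log2 scale, with 1416325_at (5.06) and Ddx4 (4.22) farthest out, while the lower calls lie between -1.21 and -1.04.

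Among transcription factors, Pbx3, Hlf and Hlx rose. Pbx3, a TALE homeodomain protein that binds DNA together with HOX proteins, had signals of 552, 365 and 463 in ND13, 621, 408 and 469.6 in NA10, 190.3, 200.3 and 217 in ND13(N51S) and 224, 217 and 218 in the GFP control. Every active array was above every control array, and ND13 and NA10 overlapped. The difference was 1.16 (SE 0.14, adjusted p = 0.0125). Hlf, a PAR bZIP transcription factor known from a fusion with E2A in human acute lymphoblastic leukemia, was measured by a pair of probe sets. The called one (1434736_at) read 1150, 622 and 285 in ND13, 2078, 1106 and 662 in NA10, 603, 492 and 185 in ND13(N51S) and 190.4, 301 and 143 in the GFP control, a difference of 1.57 (SE 0.21, adjusted p = 0.017). Within each replicate number both fusions were above both controls, and across numbers the arms overlapped. The other Hlf probe set (1434735_at) differed by 1.02 (SE 0.25, adjusted p = 0.135), with ND13(N51S) replicate 1 at 1656, above all ND13 arrays. Hlx, a diverged homeobox gene, ranged over 120.5 to 436 (median 181) with the active fusions and 18.6 to 91.6 (median 60.6) in the controls, without overlap. Its difference was 1.89 (SE 0.30, adjusted p = 0.0458), and the 3 highest arrays were those of ND13.

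Ddx4, the mouse homolog of Drosophila vasa and an ATP-dependent RNA helicase of the germ line, was also higher. Its signals were 114, 121 and 90.8 in ND13, 708, 553 and 578 in NA10, 4.3, 42.1 and 21.1 in ND13(N51S) and 3.96, 20.1 and 21.9 in the GFP control. All 6 control arrays were below background and all 6 active arrays above it, and NA10 lay above ND13 on every array, although the ND13 minus NA10 difference of -2.50 was not called (adjusted p = 0.637). The mean was 361 ± 282 with the active fusions and 18.9 ± 14.1 in the controls (SD, n = 6 arrays each). The signal was at least 6.35-fold higher with the active fusions, taking the background of an array where the control signal was under it, at an adjusted p of 0.00847. Of the other germ cell genes measured, 11 in number, none was called, and 6 of all 12 had a difference above 0. The second helicase was Ddx6, which acts in the decay and translational repression of mRNA. Its called probe set (1424598_at) read 1453, 1069 and 1889 in ND13, 1904, 1385 and 1955 in NA10, 266, 141 and 753 in ND13(N51S) and 1208, 941 and 1112 in the GFP control, so that the GFP control lay close to the active fusions and ND13(N51S) was the low group. The difference was 1.46 (SE 0.23, adjusted p = 0.0451), while the other Ddx6 probe sets gave differences of 0.20 and 0.38 that were not called.

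The probe set with the smallest p in the whole comparison, 1416325_at, has no gene in the annotation used here. It read 1249, 642 and 628 in ND13, 1574, 975 and 2176 in NA10, 66.6, 56.2 and 62.4 in ND13(N51S) and 52.5, 6.87 and 14.2 in the GFP control, and its difference was 5.06 (SE 0.32, adjusted p = 5.51e-05). The lowest active array was far above the highest control array, and 2 of the 6 control arrays were below background. Crisp3, a secreted cysteine-rich protein gene on chromosome 17, had a similar profile at lower signal, with 126, 89.8 and 74.4 in ND13, 67.1, 66.2 and 181 in NA10, 9.98, 17.5 and 30.1 in ND13(N51S) and 2.1, 16.5 and 1.86 in the GFP control. All 6 controls of Crisp3 were below background, which put the active fusions at least 2.32-fold higher, but the difference missed the threshold (adjusted p = 0.0537). Crisp3 was named because its arms were separated, so that its separation adds no support. Crisp1, which heads the study's list of genes changed by both fusions, has no probe set of its own in the annotation. Whether 1416325_at measures Crisp1 was not determined.

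Receptors and signaling genes formed the next group. Ptprf encodes LAR, a receptor-type protein tyrosine phosphatase. Its probe set 1420843_at read 726, 599.7 and 385 in ND13, 269.9, 215.7 and 205 in NA10, 88.6, 152 and 20.7 in ND13(N51S) and 19.0, 13.5 and 30.3 in the GFP control, a difference of 3.30 (SE 0.40, adjusted p = 0.012), and ND13 lay above NA10 on every array. As 4 of the 6 control arrays were below background, the fold was also taken against the background there and was at least 6.69. The second Ptprf probe set, 1420842_at, ranged over 173 to 489 (median 201) with the active fusions and 14.9 to 73.7 (median 55.3) in the controls, and differed by 2.38 (SE 0.32, adjusted p = 0.017). Both were free of overlap, whereas the remaining one (1420841_at) differed by 0.44 and was not called. Calcrl, the G protein-coupled receptor for adrenomedullin and calcitonin gene-related peptide, ranged over 533 to 1258 (median 1030) with the active fusions and 218 to 780.4 (median 412) in the controls. The arms of this probe set (1425814_a_at) overlapped across replicate numbers, yet within each number both fusions exceeded both controls, and the difference was 1.18 (SE 0.17, adjusted p = 0.0273). A second Calcrl probe set at lower signal differed by 0.34 and was not called (adjusted p = 0.726). Socs2, a STAT-induced inhibitor of cytokine signaling, read 2592, 2662 and 2801 in ND13, 2132, 2154 and 3203 in NA10, 961, 824 and 2014 in ND13(N51S) and 933, 1488 and 2049 in the GFP control. No control array reached the lowest active array, and the difference was 0.99 (SE 0.16, adjusted p = 0.0451). The second Socs2 probe set differed by 0.94 without a call (adjusted p = 0.204). Cish, another SH2-containing feedback inhibitor, ranged over 1166 to 1889 (median 1358) with the active fusions and 751 to 1117 (median 784) in the controls without overlap, but narrowly missed the threshold (0.71 (SE 0.12, adjusted p = 0.0522)). Of the 12 genes of the JAK-STAT feedback list, Socs2 was the called member and 8 had differences above 0, with a median of 0.20.

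Enzymes and membrane proteins were also among the higher calls. Hacd4, a dehydratase of very long chain fatty acid synthesis, ranged over 418 to 994 (median 755) with the active fusions and 154 to 531 (median 267) in the controls, with NA10 highest, and differed by 1.27 (SE 0.18, adjusted p = 0.0304). Pde9a, a cGMP phosphodiesterase, was below background on all 6 controls and on 3 of the 6 active arrays, those of ND13, and NA10 read 122, 50.6 and 238. Its signal was at least 1.34-fold higher (adjusted p = 0.034). Sirt2, an NAD-dependent deacetylase, ranged over 147 to 419 (median 228) with the active fusions and 38.3 to 190.1 (median 84.2) in the controls and differed by 1.47 (SE 0.22, adjusted p = 0.0375). Man1a, a Golgi mannosidase that trims N-glycans, differed by 0.77 (SE 0.12, adjusted p = 0.0423), and its second probe set by 0.36 without a call. The arms of the called Man1a probe set (1417110_at) overlapped, with a lowest active signal of 1421 and a highest control signal of 1455. Against the GFP control alone, ND13 differed by 0.64 (adjusted p = 0.212) and NA10 by 0.49 (adjusted p = 0.618). Tmem71, a transmembrane protein, had no overlap, with 320.1 to 593 (median 434) with the active fusions and 90.9 to 310 (median 187) in the controls and a difference of 1.31 (SE 0.21, adjusted p = 0.0451).

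**Figure D2:**
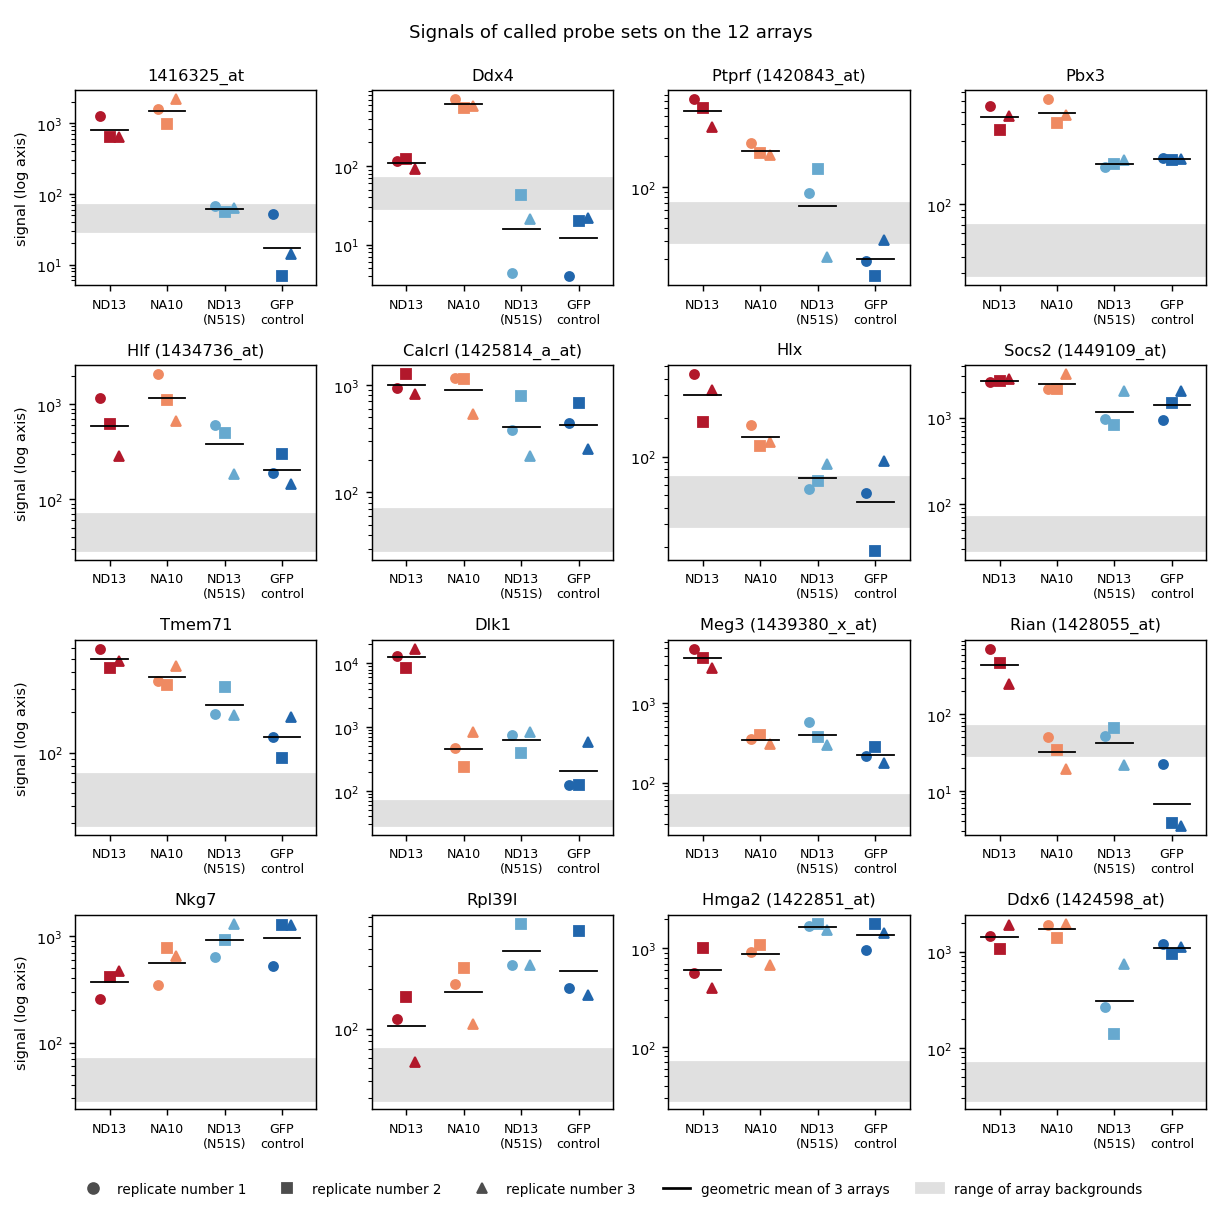
Signal on each of the 12 arrays (log axis) for 16 of the 23 called probe sets, by group from left to right ND13, NA10, ND13(N51S) and GFP control. Markers give the replicate number, lines the geometric mean of 3 arrays, and the grey band the range of the array backgrounds. 1416325_at, Ddx4 and Pbx3 are high in both fusions, Dlk1, Meg3 and Rian are highest in ND13, and Ddx6 is low in ND13(N51S).

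A group of higher calls was highest in ND13. Dlk1, Meg3 and Rian lie in the imprinted Dlk1-Dio3 locus of chromosome 12, in which Dlk1, a delta-like membrane protein, is expressed from the paternal copy and the noncoding RNAs Meg3 and Rian from the maternal copy. Dlk1 read 13180, 8490 and 16890 in ND13, 471, 236 and 826 in NA10, 747, 400.2 and 836 in ND13(N51S) and 124, 123 and 588 in the GFP control. The 3 ND13 arrays were far above all others, and NA10 lay within the range of the controls. The difference between the arms was 2.71 (SE 0.22, adjusted p = 0.000407), but ND13 minus NA10 was 4.78 (SE 0.32, adjusted p = 5.16e-05), and the exact p over the arms was 0.102. Meg3 (1439380_x_at) read 4861, 3716 and 2812 in ND13, 349, 396 and 306 in NA10, 574, 374 and 297 in ND13(N51S) and 217, 281 and 175 in the GFP control, with 3.41 (SE 0.21, adjusted p = 4.29e-05) for ND13 minus NA10. A second Meg3 probe set (1452183_a_at) gave 5.01 (SE 0.35, adjusted p = 7.17e-05) in the same contrast, with 1 of 3 NA10 arrays above background and ND13 at least 29.5-fold higher when the background stands in for the others. Of the remaining Meg3 probe sets none was called between the arms, and 1436057_at, above background on all 12 arrays, differed by 0.43 (adjusted p = 0.654). Rian (1428055_at) read 714, 470 and 245 in ND13, 50.2, 34.0 and 19.1 in NA10, 52.6, 65.0 and 21.6 in ND13(N51S) and 22.2, 3.75 and 3.5 in the GFP control, and its ND13 minus NA10 difference was 3.77 (SE 0.58, adjusted p = 0.0649). NA10 was above background on 1 of 3 arrays and the controls on 2 of 6. The brightest Rian probe set (1452899_at), above background on all 12 arrays, differed between the arms by 0.11 and was not called (adjusted p = 0.907). The mean of ND13(N51S) was above that of the GFP control, by 1.60 for Dlk1 and 0.86 for Meg3, without a call (adjusted p = 0.12 and 0.172). These 3 genes were all the measured members of a list of 7 for the locus.

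The probe set 1417184_s_at, for which the annotation gives several genes, was the reverse case. It read 1808, 3468 and 3606 in ND13, 5633, 7919 and 9842 in NA10, 2062, 3470 and 3879 in ND13(N51S) and 1318, 3244 and 3351 in the GFP control, with NA10 above the rest within each replicate number and ND13 at the level of the controls. ND13 minus NA10 was -1.43 (SE 0.14, adjusted p = 0.00217).

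The 3 lower calls were Nkg7, Rpl39l and Hmga2. Nkg7, a granule membrane protein of natural killer and cytotoxic cells, read 258, 412 and 471 in ND13, 346, 780 and 646 in NA10, 640.1, 918 and 1311 in ND13(N51S) and 526, 1279 and 1285 in the GFP control. The arms overlapped across replicate numbers but not within any of them, and the difference was -1.04 (SE 0.14, adjusted p = 0.017). Rpl39l, a paralog of the ribosomal protein gene Rpl39, ranged over 55.7 to 289 (median 146) with the active fusions and 181 to 625 (median 305) in the controls, with a difference of -1.21 (SE 0.19, adjusted p = 0.0451). Hmga2, a chromatin protein with AT hooks that is abundant in fetal stem cells, ranged over 399 to 1085 (median 799.8) with the active fusions and 967 to 1788 (median 1606) in the controls. Its called probe set differed by -1.04 (SE 0.17, adjusted p = 0.0461) and a second, 1450780_s_at, by -0.83 (adjusted p = 0.0928), while the remaining probe set differed by 0.04 at lower signal. Hmga2 was lowest in ND13, and GFP control replicate 1 lay below the other controls.

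The upstream windows of called genes are shown because several of these genes moved together. RefSeq windows of 250 bases before the transcript start (GRCm38.p6) were found for 14 of the 19 called genes, 15 windows in all, and were searched on both strands for TGATTNAT (Pbx-Hox), TGACAG (Meis), TTTACGA (HOXD13) and TTTAT (posterior Hox core). A TGATTNAT with T at N would contain TTTAT. Capitals mark matches. The first pair belongs to the chromosome 12 genes that were high in ND13, the third holds the only Meis-type match, and the last pair belongs to Ddx4 and Ptprf, whose arms did not overlap, and holds no match.
Dlk1 (chr12:109452573-109452822, plus strand): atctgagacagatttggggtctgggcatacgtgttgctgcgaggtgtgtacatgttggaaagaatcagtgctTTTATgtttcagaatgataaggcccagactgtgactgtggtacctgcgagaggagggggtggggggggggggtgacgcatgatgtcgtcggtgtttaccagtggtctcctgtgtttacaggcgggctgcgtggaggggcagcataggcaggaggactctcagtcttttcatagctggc
Meg3 (chr12:109540746-109540995, plus strand): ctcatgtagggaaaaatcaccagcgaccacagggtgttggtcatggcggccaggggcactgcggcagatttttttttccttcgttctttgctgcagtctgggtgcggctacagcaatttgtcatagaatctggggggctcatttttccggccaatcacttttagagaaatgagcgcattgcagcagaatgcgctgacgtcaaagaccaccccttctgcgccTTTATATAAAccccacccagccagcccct
Man1a (chr10:54075738-54075987, minus strand): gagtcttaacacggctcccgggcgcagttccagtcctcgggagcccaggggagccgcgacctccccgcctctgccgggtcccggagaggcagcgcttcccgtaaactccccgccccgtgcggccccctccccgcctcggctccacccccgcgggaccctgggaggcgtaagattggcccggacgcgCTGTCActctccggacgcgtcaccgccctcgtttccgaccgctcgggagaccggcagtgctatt
Ddx4 (chr13:112652311-112652560, minus strand): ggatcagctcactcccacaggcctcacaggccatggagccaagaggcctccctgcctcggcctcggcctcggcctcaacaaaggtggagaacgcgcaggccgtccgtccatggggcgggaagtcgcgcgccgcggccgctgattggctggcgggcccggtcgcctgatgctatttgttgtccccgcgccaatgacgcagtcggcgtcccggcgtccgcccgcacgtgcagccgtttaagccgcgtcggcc
Ptprf (chr4:118291398-118291647, minus strand): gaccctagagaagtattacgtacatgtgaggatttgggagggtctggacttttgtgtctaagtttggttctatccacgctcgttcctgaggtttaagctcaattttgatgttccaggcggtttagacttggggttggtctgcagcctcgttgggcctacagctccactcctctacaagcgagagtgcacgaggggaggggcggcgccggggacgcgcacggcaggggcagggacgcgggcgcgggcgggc

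TTTAT occurred in 4 of the 15 windows, those of Dlk1, Meg3 (both of its windows) and Sirt2, against 37.3% of all 32851 windows of the same length. In the Meg3 window above, the match on each strand falls into a single stretch with a TATA sequence. TGACAG occurred in the Man1a window alone, against 15.9% of all windows. TGATTNAT and TTTACGA were in none of the 15 windows, against 2.82% and 0.478% of all. The Ddx4 and Ptprf windows held 31 and 18 CG pairs, against a median of 6 over all windows, and the GC content of the Ddx4 window was 70.4%, against a median of 52.4%. A match describes letters in a window and not a bound site.

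Each fusion was then set against each control for the called probe sets, from the same fit. The 4 contrasts share arrays, so that they are given side by side. For 18 of the 23 probe sets all 4 differences ran in the same direction. At an adjusted p under 0.05, 10 of the 23 passed for ND13 minus GFP control, 6 for NA10 minus GFP control, 7 for ND13 minus ND13(N51S) and 5 for NA10 minus ND13(N51S). The 23 were selected on the average of these 4 differences, so that the shared direction and these counts partly restate the selection. The share of all probe sets that passed in each contrast was not taken. 1416325_at alone passed in all 4. Ddx4 passed in both contrasts of NA10, with 5.66 (SE 0.69, adjusted p = 0.0146) against the GFP control and 5.28 (SE 0.69, adjusted p = 0.0245) against ND13(N51S), both against control signals below background. Pbx3 passed in none of the 4 contrasts singly, at differences of 1.05, 1.16, 1.17 and 1.28 in the order just given. Ddx6 differed from ND13(N51S) by 2.23 (SE 0.33, adjusted p = 0.0401) for ND13 and 2.50 (SE 0.33, adjusted p = 0.0245) for NA10, but from the GFP control by only 0.41 and 0.68.

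**Figure D3:**
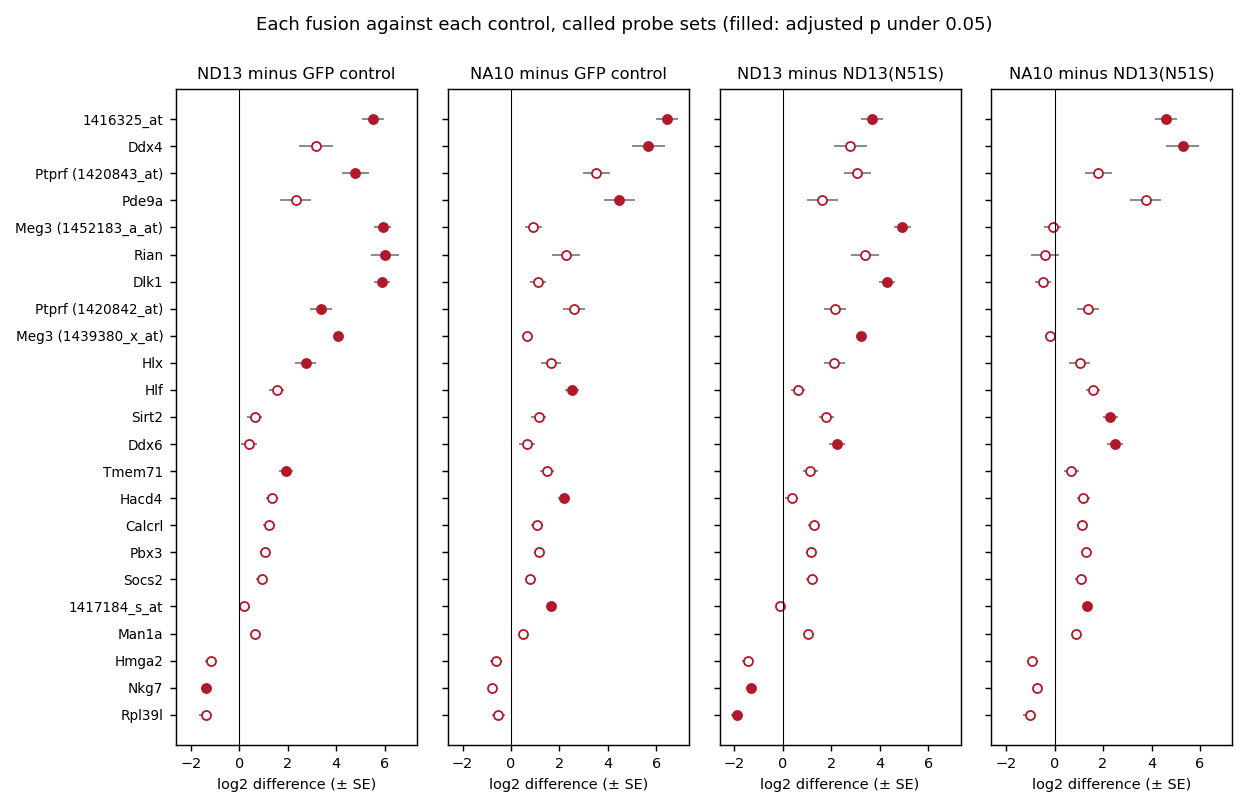
Log2 difference with its SE for the 23 called probe sets in the 4 contrasts of a fusion with a control; filled points have an adjusted p under 0.05. Both contrasts of ND13 are above 3 for Dlk1, Meg3 and Rian, those of NA10 run from -0.48 to 1.12 for Dlk1 and Meg3 and are 2.27 against the GFP control and -0.39 against ND13(N51S) for Rian, while 1416325_at is filled in all 4.

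Within the arms, ND13 against NA10 had 7 probe sets higher (0.0309%) and 2 lower (0.00884%). Besides Dlk1, 3 probe sets of Meg3, a Rian probe set other than the one above (3.83, adjusted p = 0.037) and 1417184_s_at, these were Ccr1, a chemokine receptor (1.92, adjusted p = 0.00199), Mark2, a polarity kinase (2.99, adjusted p = 0.0201), and Vldlr, a lipoprotein receptor (-1.46, adjusted p = 0.0331). ND13(N51S) against GFP control had 3 higher and 3 lower, each 0.0133%. Ctsh and Ctss, lysosomal cathepsins, and Jun, an immediate early transcription factor, were higher with the mutant by 1.94, 1.04 and 1.78, and Mycn, Atrx and Rbm5 had differences of -1.47, -2.13 and -1.91. None of the 23 called probe sets was called between the controls. Only 0.0265% of all probe sets were, so that a list this short would rarely hold a call. The missing calls therefore do not show that the controls were alike for the 23. ND13(N51S) minus GFP control was -1.83 for Ddx6 (1424598_at), -1.16 for Sirt2 and 0.92 for Hlf (1434736_at). For Pbx3 and Calcrl (1425814_a_at) it was -0.12 and -0.07. At an unadjusted p under 0.05, 2565 probe sets (11.3%) differed between the controls, 2539 (11.2%) between active fusions and controls and 1087 (4.80%) between the fusions.

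HoxA genes and their cofactors were of interest because primitive cells and leukemias with NUP98-HOX fusions express them. No member of the HoxA cluster was called with all arrays, although all 9 measured members had differences above 0, with a median of 0.57, against -0.04 over all genes. Only 3 of the 9 were above background on all 12 arrays, and without ND13(N51S) replicate 2 the median was 0.34, with 8 of 9 above 0. Hoxa9 was the brightest, with 4965, 4920 and 5563 in ND13, 6184, 6350 and 7127 in NA10, 3534, 4960 and 3785 in ND13(N51S) and 3800, 3653 and 3928 in the GFP control. NA10 was above every control, and ND13 overlapped ND13(N51S) replicate 2. Its difference of 0.57 fell just short of 1.5-fold and its adjusted p was 0.05003. A dimmer Hoxa9 probe set (1421579_at), above background on all 12 arrays, differed by 0.28 (SE 0.15, adjusted p = 0.509). Hoxa7 read 292, 382 and 178 in ND13, 205, 268 and 179 in NA10, 61.9, 10.2 and 40.9 in ND13(N51S) and 78.2, 157 and 39.6 in the GFP control, without overlap, and differed by 2.32 (SE 0.44, adjusted p = 0.0669). Hoxa5 read 493, 394 and 362 in ND13, 691, 582 and 612 in NA10, 325, 176 and 57.4 in ND13(N51S) and 117, 212 and 254 in the GFP control, again without overlap, and differed by 1.62 (SE 0.34, adjusted p = 0.0928). In the HoxB cluster, Hoxb4 ranged over 108 to 335 (median 205) with the active fusions and 73.2 to 136 (median 123) in the controls and differed by 0.81 (SE 0.17, adjusted p = 0.0944), and 4 of 9 measured members had a difference above 0. Of 13 HoxC and HoxD members, 10 had a difference below 0, and 1 was above background on all 12 arrays.

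Of the TALE cofactors, 11 were measured and Pbx3 was the one called, with 5 of 11 above 0 and a median of -0.03. Meis1, the main Hox partner in myeloid leukemia, ranged over 679.5 to 1208 (median 952) with the active fusions and 887 to 1724 (median 982) in the controls, and its difference was -0.22 (SE 0.13, adjusted p = 0.55). The Pbx2 probe set of highest signal (1418893_at) differed by -0.03 (SE 0.18, adjusted p = 0.959). The genes that make up the fusions gave no check of the labels, since the sources used here do not place the probe sets inside the parts that the vectors carry. Hoxd13 was below background on all 12 arrays, Hoxa10 differed by 0.17 (SE 0.31, adjusted p = 0.858) and Nup98 by 0.13 (SE 0.16, adjusted p = 0.794).

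**Figure D4:**
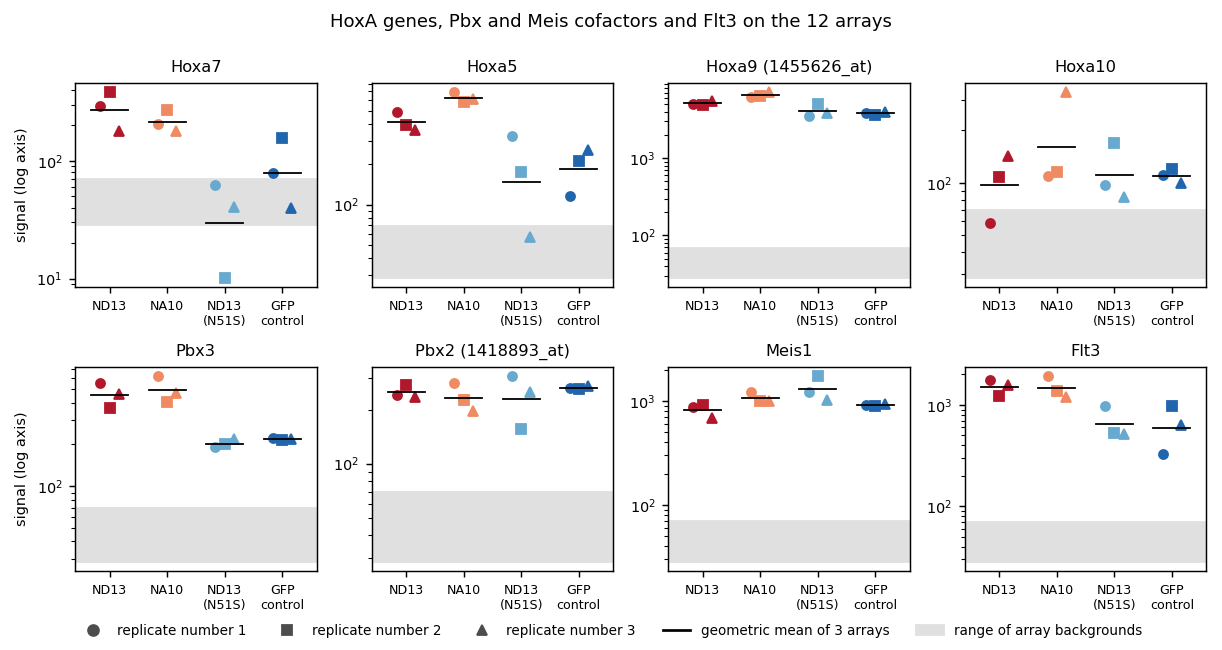
Signal on each array (log axis) of Hoxa7, Hoxa5, Hoxa9, Hoxa10, Pbx3, Pbx2, Meis1 and Flt3, by group from left to right ND13, NA10, ND13(N51S) and GFP control. Markers give replicate numbers and the grey band the range of backgrounds. Pbx3, Hoxa7, Hoxa5 and Flt3 have all 6 active arrays above all 6 controls, while Pbx2, Meis1 and Hoxa10 overlap.

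Genes known from stem and progenitor cells went both ways. Of 15 measured stem cell surface genes, 8 had a difference above 0, none was called and the median was 0.00, and of 21 stem cell transcription factors 9 were above 0, Hlf was the one called and the median was -0.08. Some of these and other named genes had separated arms without a call. Flt3, a receptor tyrosine kinase of early progenitors, read 1743, 1235 and 1556 in ND13, 1917, 1363 and 1197 in NA10, 972, 524 and 521 in ND13(N51S) and 329, 983 and 637 in the GFP control. The lowest active array was above the highest control, and the difference was 1.26 (SE 0.26, adjusted p = 0.0925). Procr, the endothelial protein C receptor and a stem cell marker, ranged over 238 to 416 (median 386) with the active fusions and 142 to 231 (median 203) in the controls without overlap (0.92 (SE 0.16, adjusted p = 0.0537)). Tgm2, a transglutaminase, had 6 probe sets, of which 3 were named, with differences of 1.18 to 1.40 (adjusted p from 0.0537 to 0.0633). Of these, 1433428_x_at and 1455900_x_at were named because their arms were separated, so that their separation adds no support. The other, 1437277_x_at, was named from a gene list by its small p and was separated too. Mitf, a transcription factor of mast cells and melanocytes, ranged over 248 to 407 (median 285) with the active fusions and 100.4 to 194 (median 149) in the controls (1.02 (SE 0.19, adjusted p = 0.0626)). Jag2, a Notch ligand, was separated in a dim probe set (1426431_at, 1.23 (SE 0.32, adjusted p = 0.162)) and differed by 0.12 in a brighter one. The differences of Mef2c, a myeloid and muscle transcription factor with 5 probe sets, ran between 0.45 and 0.93. Prnp, the prion protein gene, had overlapping arms in its brighter probe set (1448233_at, 0.56 (SE 0.17, adjusted p = 0.248)). Its means were 1344 in ND13, 1748 in NA10, 1468 in ND13(N51S) and 776 in the GFP control, so that the mutant lay near the fusions. The dimmer Prnp probe set (1416130_at) differed by 0.24 (adjusted p = 0.699). Ahrr, the repressor of the aryl hydrocarbon receptor, ranged over 282 to 488 (median 387) with the active fusions and 123 to 260 (median 183) in the controls (1.08 (SE 0.19, adjusted p = 0.0537)).

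Among genes with lower signal, Akr1b8, an aldo-keto reductase, ranged over 113 to 181 (median 162) with the active fusions and 209 to 421 (median 325) in the controls and missed the threshold by the smallest margin (-1.07 (SE 0.18, adjusted p = 0.05003)). Sort1, the sorting receptor sortilin, ranged over 55.8 to 85.7 (median 75.9) with the active fusions and 124 to 206 (median 153) in the controls (-1.14 (SE 0.20, adjusted p = 0.0537)). Both were named because all their active arrays were below all controls, so that their separation adds no support. With these included, the active arrays were below all controls for 21 uncalled probe sets of 1 gene. The filters were 1.5-fold, an unadjusted p under 0.05 and a higher-side mean above background. Under these filters 47 had the active arrays above. Over all probe sets tested, without these filters, 53 (0.234%) were separated below and 84 (0.371%) above. Cd44, an adhesion receptor, and Tfpi, a coagulation inhibitor, had differences of -0.66 (SE 0.11, adjusted p = 0.0522) and -0.64 (SE 0.12, adjusted p = 0.0765).

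Read as groups, most lists stayed near the value for all genes, of which 16 were called higher and 3 lower of 12393. Of 19 immediate early genes, none was called, 13 had a difference above 0 and the median was 0.35, with Ier3 at 0.68 (SE 0.14, adjusted p = 0.0928) and Nr4a1, an orphan nuclear receptor, at 1.40 (SE 0.35, adjusted p = 0.149). The same list had a median of 0.78 for ND13(N51S) minus GFP control. Interferon-stimulated genes had 12 of 15 below 0 and a median of -0.21, and Usp18, one of them, read 1523 on GFP control replicate 1, the highest of the 12 arrays. S phase genes (median -0.06), mitosis genes (0.04), glycolysis (0.08) and cholesterol synthesis (0.00) had no call in either direction. Of 19 nucleoporin and transport genes, the family from which the fusions take NUP98, 17 were below 0, between -0.33 and 0.13, none called. The 67 measured genes of the study's own list of genes changed by both fusions and not the mutant were all above 0, with 8 called and a median of 0.80, but this list was chosen on these samples and is not independent evidence.

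Markers of other cell types were read as summed signals. Fibroblast markers, for the virus producer line, summed to 1029 to 1731 with the active fusions and 1423 to 2662 in the controls, and erythroid markers to 4304 to 5072 and 5157 to 6963, with Alas2 below background on every array. Neutrophil markers summed to 7099 to 19609 and 13561 to 20419, with Mpo, the myeloperoxidase gene, at a difference of -0.66 (SE 0.20, adjusted p = 0.257). Macrophage, mast cell and megakaryocyte sums overlapped widely. B cell and T cell sums were at most 374 and 183, and Pax5 and Cd4 were below background on all arrays. Markers of the sorted gate summed to 14294 to 18961 with the active fusions and 13024 to 16017 in the controls. No marker other than Hlf was called, and the part of other cells in the calls was not tested.

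The array of poorest RNA quality had a large effect on the count of calls. Without ND13(N51S) replicate 2, 139 probe sets of 107 genes were higher (0.614%) and 29 of 26 genes lower (0.128%), with all 23 of the earlier calls among them. Hoxa9 (1455626_at) was then called at 0.65 (SE 0.06, adjusted p = 0.000902) and Hoxa7 at 1.79 (SE 0.23, adjusted p = 0.00511). The dimmer Hoxa9 probe set (1421579_at) differed by 0.16 without a call (adjusted p = 0.615). Also called were Csf2rb2, the interleukin-3 receptor beta chain (1.19 (SE 0.16, adjusted p = 0.00732)), Cish (0.67 (SE 0.11, adjusted p = 0.0173)), Procr (0.90 (SE 0.16, adjusted p = 0.0232)), 3 of the Mef2c probe sets, 4 Tgm2 probe sets, Ahr and Ahrr, Mitf, Itgb2 and Malat1 upward, and Akr1b8, Sort1 and Cd44 downward. For Malat1 (1418189_s_at), ND13(N51S) was the low group, at 238, 74.0 and 530 on all its arrays. The GFP control read 2933, 1877 and 1504, within reach of the active fusions (1670 to 4282). With all arrays, ND13 and NA10 exceeded the GFP control by only 0.605 and 0.67 (adjusted p = 0.844 and 0.927). Tfpi had a smaller adjusted p (0.0311) but a change under 1.5-fold. On the array left out, Csf2rb2 read 2299 and Hoxa9 4960, both above the other 5 controls. In the study's list, 34 of the 67 measured were called, with the same limit as before. Genes outside the naming rule and picked after their values were seen include Basp1 (1.09, adjusted p = 0.00042), Dtx3 (1.31, adjusted p = 0.0012), Car2, carbonic anhydrase 2 (1.36, adjusted p = 0.00155), and Zbtb16, the PLZF zinc finger gene (-3.24, adjusted p = 0.0261). Without GFP control replicate 1 the counts were 18 and 5, but only 15 of the 23 calls were kept. Without both arrays the counts were 133 and 26, with all 23 calls retained.

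Without ND13(N51S) replicate 3 the counts were 53 higher and 8 lower, and leaving out any of the other 10 arrays gave 4 to 21 higher and 0 to 5 lower. Without an ND13 array, 5 to 11 probe sets were called higher, and without an NA10 array 4 to 10. Of the 23 calls, 5 to 8 were kept without an ND13 array and 4 to 10 without an NA10 array. The only calls kept whichever array was left out were 1416325_at (difference 4.82 to 5.40), Dlk1 (2.49 to 2.94) and both Meg3 probe sets (1.86 to 2.04 and 2.76 to 3.05). Ddx4 was kept for 10 of the 12 arrays left out, with a highest adjusted p of 0.0669, and Ptprf (1420843_at), Pbx3 and Hlf for 8, 7 and 7. No direction changed among the 23. Without the replicate block, 8 probe sets (0.0354%) were called, all of them among the 20 higher calls. These were 1416325_at, Dlk1, Ddx4, Pbx3 and both called probe sets of Meg3 and of Ptprf, and none of the lower calls passed.

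**Figure D5:**
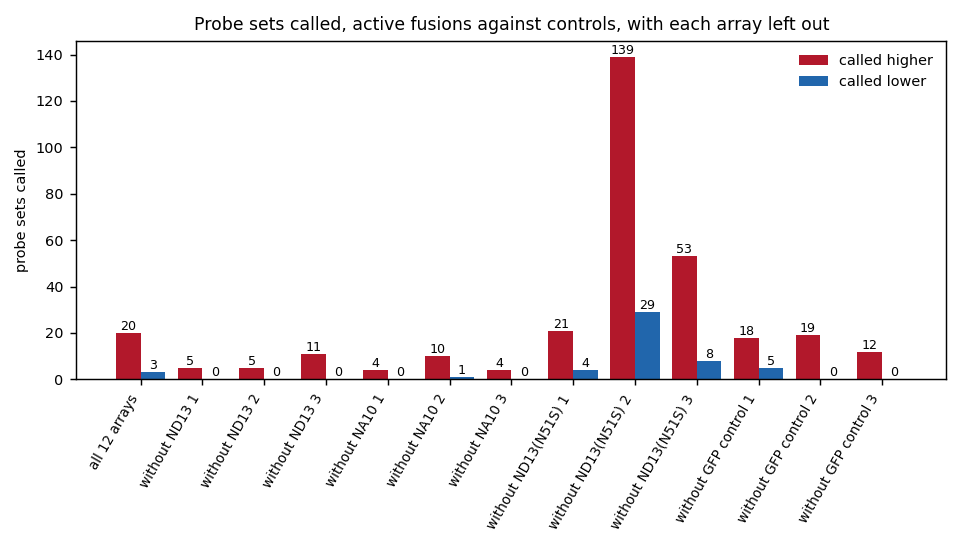
Number of probe sets called higher (red) and lower (blue) between active fusions and controls with all 12 arrays and with each array left out in turn. The bars are tallest without ND13(N51S) replicate 2 (139 and 29) and lowest for higher calls without NA10 replicate 1 or 3 (4 each).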

How the data were processed

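RNA of Sca-1+ Lin- GFP+ marrow cells was hybridized to 12 MOE430A arrays, 3 for each of ND13, NA10, ND13(N51S) and the GFP control. The deposited values are linear signal intensities that the authors made with MAS5, scaled to a common trimmed mean (500.16 to 500.19 on every array). Values made with GC-RMA, which the methods name for the study's own tests, were not used here.

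Signals were converted to log2 (floor 0.01, below every value) without further scaling. Of 22690 probe sets, 64 hybridization controls were left out. Of the 22626 tested, 20380 carried 1 gene in the array annotation, 691 several and 1555 none, and 20351 were matched to RefSeq by gene number, for 12393 genes. A gene with several probe sets was represented in lists by its brightest, and counted as called if any of them was. Probe sets ending in _s_at, _a_at or _x_at can hybridize with several transcripts. limma 3.58.1 in R 4.3.3 (lmFit, eBayes with trend and robust) fitted 4 group means and the replicate number as a fixed block, with 11.8 degrees of freedom at the median. p-values were adjusted by Benjamini-Hochberg over all probe sets of a contrast, and a call needed an adjusted p under 0.05 and at least 1.5-fold. The model was tested on simulated data. Figures used matplotlib 3.10.9.

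Arrays of the same replicate number deviated together. The correlation of their deviations from the group means was 0.106 to 0.596 over probe sets of above-median signal and 0.031 to 0.156 over all, and each of the 12 arrays was closest to arrays of its own number. The labels do not say what a number shares. Replicates of a group correlated at r = 0.89 to 0.939 (12 pairs), and the number of arrays limits the precision.

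Named probe sets were all those called, those of 1 gene with separated arms, an unadjusted p under 0.05 and 1.5-fold (at most 12 of largest change each way), called members and at most 4 others of smallest p from each gene list, genes that the study's results name, and Nup98, Hoxa10 and Hoxd13. The members, gene lists and tests were chosen with earlier results of these data known. Alternatives were other block models, fits to 2 group means, a filter on dim probe sets, a pseudocount, quantile normalisation, median centring, plain eBayes, array weights, the t-test named in the methods, a single probe set for each gene, and each array or both arrays in doubt left out.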

Additional observations from a re-analysis of the deposited data

Results flagged for a closer look

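Outlying arrays were sought by Dixon's test in arms of 6 arrays for the called probe sets and the RNA quality ratios (50 tests, 5 found, where chance gives about 5% of arms). ND13(N51S) replicate 2 had a 3' to 5' ratio of 48.874 for Gapdh, against 1.901 to 2.227 on the other control arrays, and of 9.092 for actin, against 1.778 to 2.103. NA10 replicate 2 had an actin ratio of 2.381, against 1.718 to 1.914 on the other active arrays. Hlx read 18.6 on GFP control replicate 2, against 52.4 to 91.6 on the other controls. Hmga2 (1422851_at) read 967 on GFP control replicate 1, against 1435 to 1788 on the other controls. Groups of 3 were not tested.

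Among the called probe sets, the effects of the fusions differed by the test of ND13 minus NA10 itself for 4. These were Dlk1, at 4.78 (SE 0.32, adjusted p = 5.16e-05), Meg3, at 3.41 (SE 0.21, adjusted p = 4.29e-05) for 1439380_x_at and 5.01 (SE 0.35, adjusted p = 7.17e-05) for 1452183_a_at (1 of 3 NA10 arrays above background), and 1417184_s_at, at -1.43 (SE 0.14, adjusted p = 0.00217), which was higher in NA10. Each held within every replicate number, with 3 of 3 ND13 arrays beyond the NA10 array of the same number.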

How the results depend on the processing

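The counts of calls moved with most settings, while no direction changed among the 23 called probe sets. Below, 4 counts are given in turn: called higher and called lower between active fusions and controls (20 and 3 as reported), called between ND13 and NA10 (9), and called between ND13(N51S) and GFP control (6). With no replicate block they were 8, 0, 4 and 0, so that 15 of the 23 calls were lost, and with the block as a random effect 12, 0, 6 and 0. With 2 group means and the block, which leaves differences inside an arm in the error, the first pair was 3 and 0. Keeping probe sets brighter than the median gave 38, 9, 5 and 12, a pseudocount of 28.5 gave 52, 10, 12 and 10, quantile normalisation 38, 8, 9 and 7, centring on the median 36, 4, 10 and 7, plain eBayes 5, 1, 5 and 0, array weights 112, 21, 23 and 4, and 1 probe set per gene 34, 8, 4 and 9. The methods' t-test gave 398, 583, 654 and 923 without adjustment and 1, 0, 0 and 0 after Benjamini-Hochberg. Leaving out 1 array gave 4 to 139, 0 to 29, 5 to 19 and 0 to 124, and leaving out both arrays in doubt 133, 26, 24 and 2. The highest values came without ND13(N51S) replicate 2, and for the controls' contrast without ND13(N51S) replicate 3. Apart from the effect of fewer arrays or probe sets, the cause was not tested. Of the 23 calls, all were kept with array weights, centring, the pseudocount and without both arrays in doubt, and 22 with quantile normalisation.

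Of the uncalled named genes near 0, Hoxd13, below background throughout, was -0.032 with the pseudocount and -0.25 without both arrays in doubt, and ran from -0.27 to 0.46 with 1 array left out. Pbx2 (1418893_at) ran from -0.18 to 0.053 and Hoxa10 from -0.084 to 0.37 in the same way. At an unadjusted p under 0.05 and 1.5-fold, 48.2% of changes were higher as deposited, 50.1% after centring and 57.8% after quantile normalisation. MAS5 signals scatter widely near background, where 2 arrays of a group can differ several-fold.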

Other observations

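No gene of the lymphoid priming or MHC class II presentation lists was called between active fusions and controls. Over all genes 0.129% were called higher and 0.0242% lower, so that lists this short would rarely hold a call. Ighm, the IgM heavy chain gene, ranged over 589 to 1590 (median 694) with the active fusions and 273 to 828 (median 338) in the controls, a difference of 1.05 (SE 0.22, adjusted p = 0.0916). Il7r, the interleukin-7 receptor, ranged over 87.9 to 183 (median 158) with the active fusions and 111 to 755 (median 168) in the controls, a difference of -0.89 (SE 0.27, adjusted p = 0.237), with its highest signals on ND13(N51S) replicates 1 and 2. Vpreb1, a surrogate light chain gene, had a difference of -1.45 (SE 0.37, adjusted p = 0.161) at signals close to background. Over the 16 measured genes of the lymphoid priming list, 10 were above 0 and the median was 0.08. MHC class II presentation genes had 6 of 8 above 0 and a median of 0.23, against 1.16 for ND13(N51S) minus GFP control. Macrophage and dendritic cell markers had medians of 0.08 and 1.05 in the same contrasts.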
